A study of Mus musculus with 4 samples.

Results

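Macrophages of the arthritic mouse joint were divided by whether they carried RNA of the reporter tdTomato, and the genes of the reporter-positive side were compared with those of the reporter-negative side in the library of day 5. The cells were taken from the count matrix by their barcodes. A barcode had at least 500 genes, at least 2000 unique molecular identifiers (UMIs, each a counted RNA molecule), under 10% mitochondrial UMIs, at least 10 UMIs summed over the complement genes C1qa, C1qb and C1qc, and at most 1 UMI of Sparc, a gene abundant in the macrophages of the synovial surface. This left 1207 macrophages of 3265 barcodes at day 5, in a series of 18237 barcodes. Of these, 236 had at least 2 TdTomato UMIs and formed the reporter-positive side, 815 had none and formed the reporter-negative side, and 156 with 1 UMI were on neither side. Each reporter-positive cell was then paired with a reporter-negative cell of nearly the same UMI total, which gave 231 cells on each side, with 5 positive and 584 negative cells left over.

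The study measured single-cell RNA in sorted CD45+CD11b+Ly6G- cells of the hind paw synovium, a gate for myeloid cells other than neutrophils. The mice were Cx3cr1creER:tdTomato mice, which all received tamoxifen (4 mg/ml, 2 times within 48 h). Arthritogenic K/BxN serum was transferred 4 weeks after the tamoxifen. Cells were collected at steady state (day 0) and 1, 2 and 5 days after the serum, with 17400 cells loaded and 1 library per day. The labels do not give the number, age or sex of the mice in a library, and no mice without tamoxifen or without Cre are described.

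In such mice the Cx3cr1 promoter drives a Cre recombinase that works only while tamoxifen is present. A cell that expresses Cx3cr1 at that time switches on the red fluorescent reporter for good and passes it to its descendants. Monocytes also express Cx3cr1, but they are short lived and are replaced by unlabelled cells from the bone marrow during the weeks between tamoxifen and serum. Long-lived macrophages keep the label. In the synovium, macrophages of the surface lining express Cx3cr1, Vsig4 and Trem2, and macrophages deeper in the tissue, called interstitial, carry genes such as Retnla, Mrc1 and Lyve1 or the MHC class II genes that present antigen to T cells. A cell without reporter RNA can be a descendant of unlabelled cells, a macrophage that did not express Cx3cr1 at the time of tamoxifen, or a labelled cell whose reporter RNA was not captured.

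The cells were selected on their TdTomato, C1q and Sparc UMIs, so the levels of these genes are description only. Reporter-negative cells were 67.5% of the macrophages (interval 64.8 to 70.2%), cells with 1 UMI were 12.9% (11.1 to 14.9%) and reporter-positive cells were 19.6% (17.4 to 21.9%). The intervals are exact 95% Clopper-Pearson intervals and cover counting error only. The reporter-positive cells had a median of 4 TdTomato UMIs and a highest value of 25, with 152 cells at 2 to 4 UMIs and 84 cells at 5 or more. In the other libraries the same rule gave at least 2 UMIs in 32 of 76 macrophages at day 0 (42.1%), 484 of 2387 at day 1 (20.3%) and 396 of 1285 at day 2 (30.8%). The day 0 cells were shallower, with a median of 2338 UMIs in the positive cells.

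TdTomato UMIs were also found in cells with monocyte RNA and no C1q, and their source there was not tested. In day 5 cells with at least 2 UMIs of the monocyte gene Ly6c2 and no C1q, 6 of 114 had at least 2 TdTomato UMIs (5.26%, interval 1.96 to 11.1%), 26 had at least 1 (22.8%), and none had 5 or more, which allows a share of up to 3.18%. Their median depth was 3716 UMIs, close to the 3672 of the macrophages. In macrophages with at least 2 Sparc UMIs, the cells the rule left out, 87.6% of 723 cells had at least 2 TdTomato UMIs at a median of 4552 UMIs. With every cell thinned to 2000 UMIs the reporter-positive share was 13.6%, against 0.877% of the Ly6c2 cells and 60.7% of the Sparc-rich macrophages.

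The matched sides had the same depth and differed in other features. The median was 3633 UMIs per cell on the positive side and 3638 on the negative side, and the sums were 996519 and 994161 UMIs. The median C1q sum was 68 UMIs in positive and 50 in negative cells, and the median mitochondrial share was 2.66% and 2.86%. One Sparc UMI, the most the rule allowed, was found in 50 positive cells (21.6%) and 13 negative cells (5.63%). Macrophage genes that the rule did not use were present on both sides. Csf1r, the receptor for the macrophage growth factor CSF1, was at 898 CPM (UMIs scaled to a total of 1000000 on each side) in positive and 813 CPM in negative cells, and was found in 218 and 209 cells. Markers of other cells were near 0 on both sides. Their summed levels in positive and negative cells were 26.1 and 21.1 CPM for 7 fibroblast genes, 21.1 and 34.2 CPM for 4 of 8 neutrophil genes, and 32.1 and 41.2 CPM for 5 of 7 dendritic cell genes, the other genes of these lists not being analysed here. Of the T and NK list 1 of 8 genes could be read, of the B cell list 2 of 5, of the mast cell list 2 of 5, of the erythroid list 4 of 5 and of the endothelial list 3 of 5, and each list summed to under 10 CPM on either side. The fibroblast gene Pdgfra and the dendritic cell gene Ccr7 had no UMI on either side. Cd3e, Ms4a1, Igkc, Ngp, Clec9a and Cpa3 were not analysed here and were not taken as 0.

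With 1 library there is no replicate and no p-value. A gene was counted as higher or lower when it reached 50 CPM on 1 side and the 2 sides were at least 2-fold apart, and each ratio has an exact 95% interval for counting error. By that rule 23 of 2831 genes were higher in reporter-positive macrophages (0.812%) and 11 were lower (0.389%). The intervals treat UMIs as independent, while some genes had most of their UMIs in a few cells, so the number of cells with the gene is given with each level. Reporter-positive macrophages carried more of several lining genes, of Apoe and of the lysosomal gene Ctsd. They carried less Retnla and Cd209d, genes of interstitial macrophages.

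Among the lining genes, Vsig4, a complement receptor of tissue-resident macrophages (chromosome X, 96247203 to 96293438, minus strand, GRCm38), was at 659 CPM in reporter-positive and 158 CPM in reporter-negative cells, a ratio of 4.17 (interval 3.5 to 5.0). It was found in 85 positive and 55 negative cells. Matching on C1q as well as UMIs (210 cells a side) gave a ratio of 2.79. Cx3cr1, the fractalkine receptor whose promoter drives the Cre of this strain, was at 147 CPM in 77 positive cells and 36.2 CPM in 26 negative cells, a ratio of 4.05 (2.79 to 6.0). Olfml3, a secreted matrix protein, was at 123 and 30.2 CPM in 71 and 21 cells, a ratio of 4.09 (2.73 to 6.32). Axl, a receptor for dying cells, was at 44.2 and 18.1 CPM in 36 and 14 cells, a ratio of 2.44 (1.38 to 4.48). The list of 12 lining genes had 8 measured members (at least 10 CPM on 1 side), of which 5 were at least 2-fold higher, these 4 among them, and none was lower. At that lower level limit, 3.5% of 7803 measured genes were higher and 3.27% lower. The other 3 measured members were between 1-fold and 2-fold: Trem2 (ratio 1.49), the junction gene F11r (1.47) and Gpr34 (1.63). The list's median log2 ratio was 1.27, against -0.0034 over all measured genes.

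**Figure D1:**
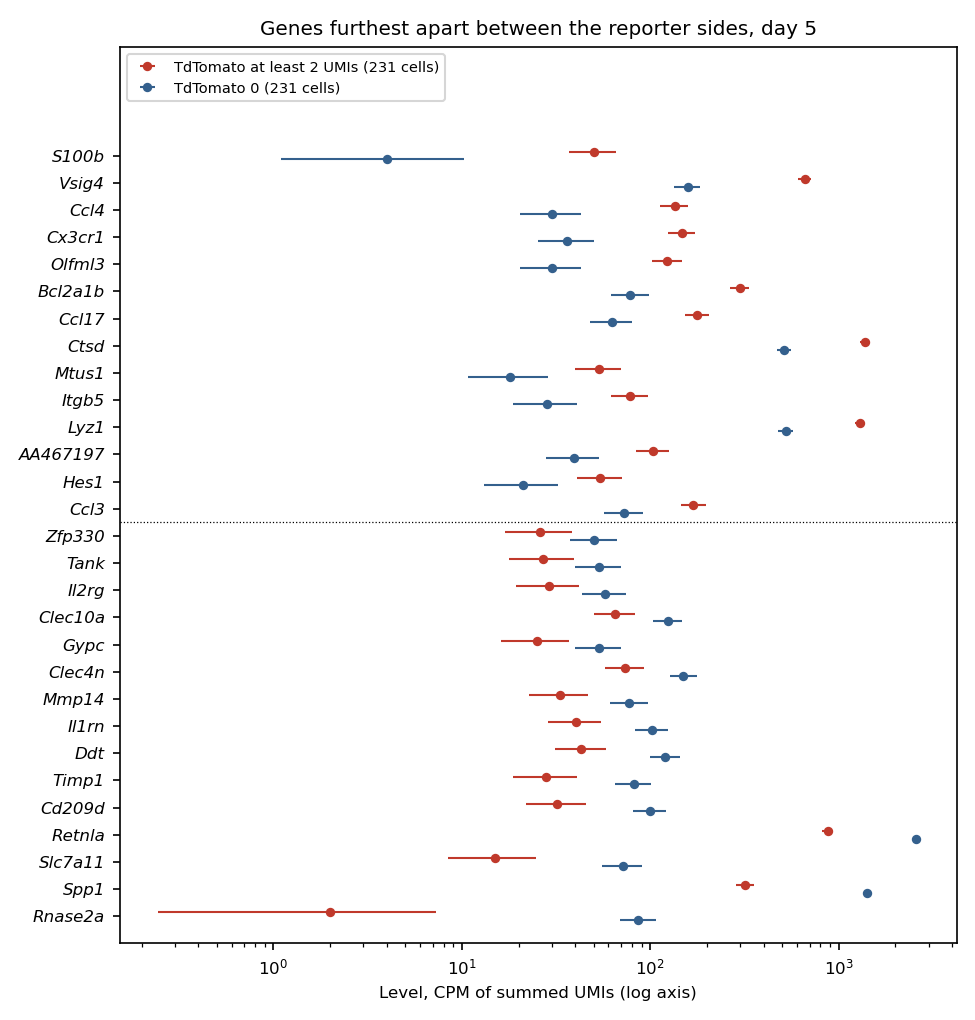
Level of 29 named genes in reporter-positive (red) and reporter-negative (blue) macrophages of day 5, in CPM of the UMIs summed over 231 cells per side, on a log axis. Bars are exact 95% Poisson intervals for counting error. The 14 genes above the dotted line were higher in positive cells, with S100b furthest apart at 50.2 and 4.02 CPM, and the 15 below it had lower levels there, 11 of them by at least 2-fold.

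S100b, a calcium-binding protein (chromosome 10, 76253853 to 76261159, plus strand), had the largest ratio among the genes that were higher. It was found in 37 positive cells and 4 negative cells, with 50 and 4 UMIs, levels of 50.2 and 4.02 CPM and a ratio of 12.5 (4.58 to 47.5). No cell held more than 4 of these UMIs. The Sparc-rich macrophages had S100b at 476 CPM and the Ly6c2 cells had none.

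Bcl2a1b, a survival gene of the BCL2 family, was at 299 CPM in 117 positive cells and 78.5 CPM in 41 negative cells, a ratio of 3.81 (2.96 to 4.96). Its near-identical copies Bcl2a1a and Bcl2a1d share sequence with it, so reads could be split among them. Itgb5, an integrin subunit used in the uptake of dying cells, was at 78.3 and 28.2 CPM in 59 and 27 cells (ratio 2.78, 1.78 to 4.45). Hes1, a transcription factor downstream of Notch, was at 54.2 and 21.1 CPM in 35 and 18 cells (ratio 2.57, 1.52 to 4.47). Mtus1 was at 53.2 and 18.1 CPM in 42 and 15 cells (2.94, 1.69 to 5.33). Each of these genes was found in more positive than negative cells. Pmepa1, which restrains TGF-beta signalling, was at 177 and 78.5 CPM (ratio 2.25, 1.71 to 2.98). The transcription factor Pou2f2 (63.2 and 30.2 CPM) and the transporter Slco2b1 (78.3 and 38.2 CPM) were just above 2-fold, and both fell below it with all members. Mtus1 fell below it with sides matched on C1q (1.95), with thinned cells (1.84) and among Sparc-free cells (1.59). Pmepa1 fell below it among Sparc-free cells, among the deeper cells alone and with a reporter limit of 1 UMI.

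Genes of lipid transport and the lysosome were also higher. Apoe, which carries lipid out of cells, was at 10542 CPM in positive and 4855 CPM in negative cells, a ratio of 2.17 (2.1 to 2.25), and was present in 195 and 181 cells, so the difference lay in the amount per cell more than in the number of cells. With all members the Apoe ratio was 1.92, just under 2-fold. Ctsd, a lysosomal protease, was at 1372 and 512 CPM in 197 and 184 cells, a ratio of 2.68 (2.42 to 2.97). Of 12 lysosomal genes, all measured, Ctsd was higher and none was lower, with a median log2 ratio of 0.16. For example, Lamp1 was at 429 and 374 CPM and Psap at 2059 and 1809 CPM. The shares over all measured genes were 3.5% higher and 3.27% lower. Lyz1, a lysozyme that is a near copy of Lyz2, was at 1292 and 523 CPM in 148 and 106 cells (ratio 2.47, 2.23 to 2.74). Lyz2 itself was at 24342 and 17697 CPM (ratio 1.38), and counting could split reads between both genes. Among the 10 lipid handling genes, Apoe was higher and Fabp4, a fatty acid carrier at 4.01 and 16.1 CPM, was lower. Abca1 and Abcg1, which export cholesterol, had ratios of 0.914 and 0.998.

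Lining genes were found in more reporter-positive than reporter-negative cells, and for single genes a minority of cells held most of the UMIs. The 23 positive cells with the most Vsig4 held 59.5% of its UMIs on that side, and the 23 negative cells with the most held 79.6%. For Cx3cr1, Olfml3 and S100b, the last not in the lining list, the share in the 23 highest positive cells was 50.7%, 52.8% and 72%. After thinning to 2000 UMIs, Vsig4 was in 32.5% of positive (26.5 to 38.9%) and 18.6% of negative cells (13.8 to 24.2%), a smaller distance than the CPM ratio of 4.17. With every cell thinned to 2000 UMIs, 51.9% of positive cells (interval 45.3 to 58.5%) had UMIs of at least 3 lining genes, against 26.4% of negative cells (20.8 to 32.6%). The share was 96.7% in Sparc-rich macrophages and 1.75% in the Ly6c2 cells. No lining gene was found in 5.19% of positive, 18.2% of negative, 0.138% of Sparc-rich and 48.2% of Ly6c2 cells. The median was 4 lining UMIs per positive cell, 2 per negative cell and 18 per Sparc-rich cell. At least 15 such UMIs were found in 9.09% of positive cells and in 65.4% of Sparc-rich cells.

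**Figure D2:**
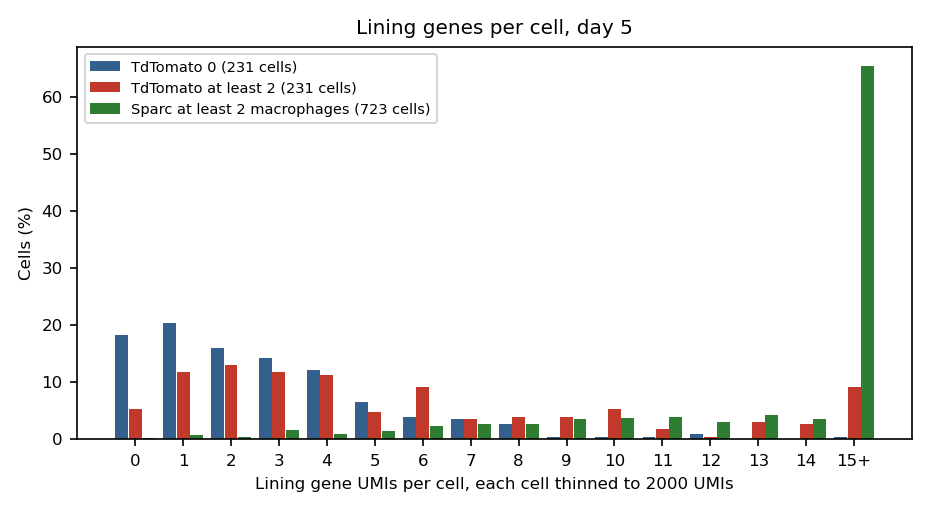
Share of cells (%) by the number of lining gene UMIs, with each cell thinned to 2000 UMIs, for reporter-negative (blue) and reporter-positive (red) macrophages and for macrophages with at least 2 Sparc UMIs (green) of day 5. The last bin holds cells with 15 or more, with 9.09% of the positive and 65.4% of the Sparc-rich cells.

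Within the reporter-positive side, cells with Vsig4 had Cx3cr1, Olfml3 and S100b in a larger share than cells without it. S100b is not in the lining list and was picked by its ratio in this comparison. Of 75 thinned positive cells with Vsig4, 33.3% had Cx3cr1, 28% had Olfml3 and 25.3% had S100b. Of 156 positive cells without Vsig4, 18.6% had Cx3cr1, 16% had Olfml3 and 5.13% had S100b. On the negative side, 1 of 43 cells with Vsig4 had Cx3cr1 (2.33%), against 7.45% of 188 cells without it. Lyve1, a gene of the interstitial list, was in 66.7% of the positive cells with Vsig4 and 39.1% of those without. On the negative side Lyve1 was in 76.7% and 47.9%. It was also in 69.6% of the thinned Sparc-rich macrophages, so it did not set interstitial cells apart from these.

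Cells near the limits of the rule were graded. Among macrophages with at least 2 TdTomato UMIs, Vsig4 was at 444 CPM in 186 cells with no Sparc, 1377 CPM in 50 cells with 1 Sparc UMI and 2193 CPM in 32 cells with 2, which the rule left out. Cx3cr1 was at 99.8, 320.1 and 320.1 CPM in the same cells. With only Sparc-free cells on both sides (180 each), the ratio was 2.90 for Vsig4, 2.96 for Cx3cr1, 2.91 for Olfml3, 11.5 for S100b and 1.65 for Apoe, the last under 2-fold. At the C1q limit, 20% of 45 cells with a sum of 10 or 11 were reporter-positive, against 6.12% of 49 cells with a sum of 8 or 9. At the reporter limit, Vsig4 was at 523 CPM in 64 cells with 2 TdTomato UMIs and 196 CPM in 156 cells with 1.

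The levels were then read over the TdTomato classes of 0, 1, 2 to 4, and 5 or more UMIs. Vsig4 was at 185, 196, 578 and 677 CPM in that order. Cx3cr1 was at 36.3, 51.5, 145 and 133 CPM, and its intervals in the upper classes overlapped (117 to 177 and 99.9 to 174 CPM). S100b was at 3.83, 14.9, 31.7 and 71.4 CPM. Ctsd was at 572, 729.9, 1098 and 1631 CPM. Bcl2a1b was at 77.0, 94.8, 275 and 305.5 CPM. For Vsig4, Cx3cr1 and Bcl2a1b the cells with 1 UMI lay next to the reporter-negative cells, and for S100b and Ctsd they lay between the negative and positive classes.

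**Figure D3:**
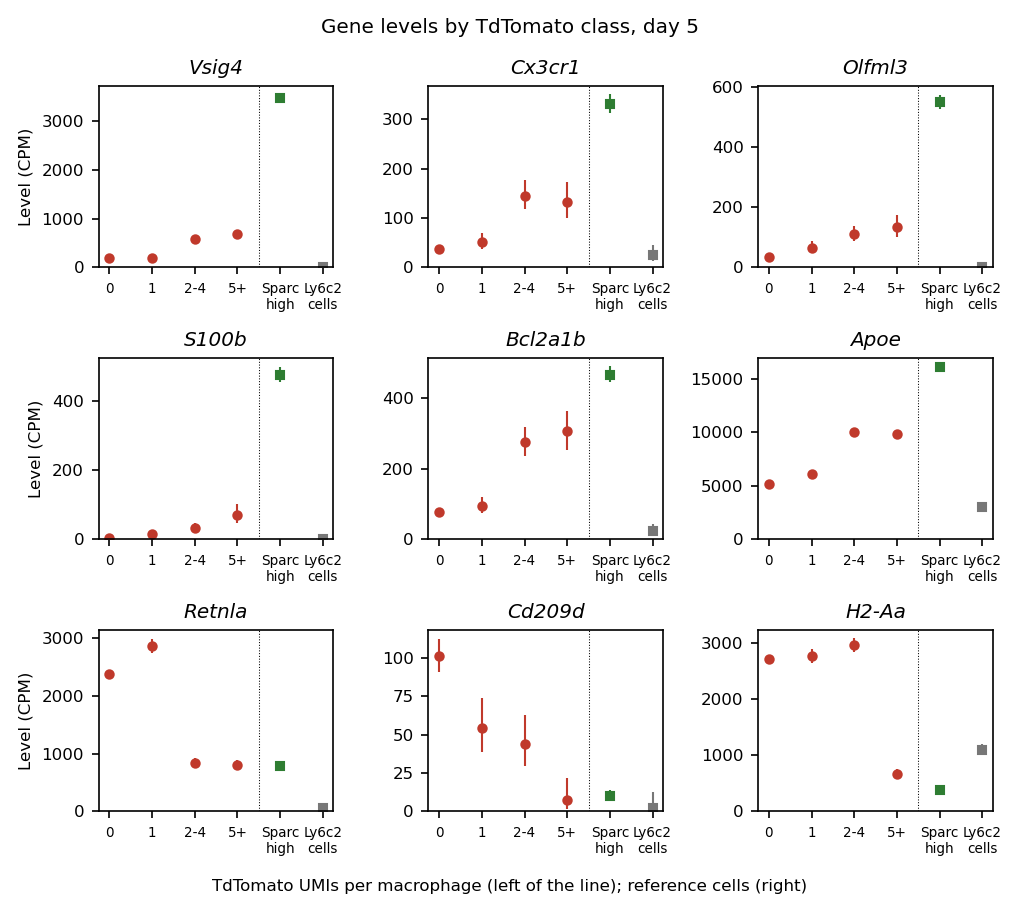
Level (CPM) of 9 genes in macrophages with 0, 1, 2 to 4 and 5 or more TdTomato UMIs (red circles), in macrophages with at least 2 Sparc UMIs (green squares) and in Ly6c2 cells without C1q (grey squares), day 5. Bars are exact 95% Poisson intervals. Vsig4 was at 185, 196, 578 and 677 CPM over the classes and at 3489 CPM in Sparc-rich cells, and H2-Aa was at 2719, 2764, 2959 and 665 CPM.

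Reporter-positive cells thus lay between reporter-negative and Sparc-rich macrophages for the lining genes. The summed lining list was at 1298 CPM in matched negative, 2843 CPM in matched positive and 8715 CPM in Sparc-rich cells, and at 370 CPM in Ly6c2 cells. Sparc-rich macrophages had Vsig4 at 3489 CPM, 5.29 times (4.89 to 5.73) the positive side's level. For Cx3cr1 the corresponding ratio was 2.26 (1.90 to 2.71), for Apoe 1.53 (1.5 to 1.56) and for Lyz1 1.04 (0.976 to 1.10). The rule's limit on Sparc bears on this order, since Vsig4 was higher in cells with more Sparc UMIs.

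Among the interstitial genes, Retnla, a secreted protein of alternatively activated macrophages (chromosome 16, 48842551 to 48844461, plus strand), was at 877 CPM in positive and 2564 CPM in negative cells, 2.92-fold lower (2.71 to 3.16). The number of cells with Retnla was 77 and 84, so it differed in amount and little in the number of cells, and 1 negative cell held 625 of the 2549 negative UMIs. Without the highest cell of each side the levels were 763 and 1952 CPM. Cd209d, a lectin of the SIGN family with near-identical relatives, was at 32.1 CPM in 15 positive cells and 99.6 CPM in 32 negative cells, 3.10-fold lower (2.06 to 4.78). Clec10a, another lectin, was at 65.2 CPM in 35 positive cells and 124 CPM in 61 negative cells (ratio 0.527, 0.384 to 0.718). Lyve1, the hyaluronan receptor, was at 592 and 889 CPM (0.666, 0.599 to 0.740), and F13a1, coagulation factor XIII A, at 797 and 1071 CPM (0.744, 0.678 to 0.816). Sparc-rich macrophages had Lyve1 at 1077 CPM, above both sides, and F13a1 at 709 CPM, below both. The mannose receptor Mrc1 had a ratio of 0.937 (0.835 to 1.05) and the folate receptor Folr2 of 1.04 (0.943 to 1.14). Of the 12 interstitial genes, all measured, only Retnla was at least 2-fold lower and none was higher, with a median log2 ratio of -0.31. Over all measured genes the shares were 3.5% higher and 3.27% lower.

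No MHC class II gene passed 2-fold between the whole sides, but levels differed within the positive side. H2-Aa was at 2174 and 2823 CPM (ratio 0.770), Cd74 at 7152 and 8290 CPM (0.863), and none of 6 measured members passed 2-fold. Over the TdTomato classes the summed list was at 16698, 16544, 18562 and 4718 CPM. Cells with at least 20 MHC class II UMIs after thinning were 26.9% (interval 23.9 to 30.1%), 28.8% (21.9 to 36.6%), 30.3% (23.1 to 38.2%) and 11.9% (5.86 to 20.8%) of the classes. The class with 5 or more UMIs held 84 cells. Sparc-rich macrophages had the list at 2398 CPM. The cells of highest reporter level thus had the least MHC class II RNA of the 4 classes, while cells with 2 to 4 UMIs were close to reporter-negative cells. Ccr2, the chemokine receptor by which monocytes enter tissue, was also lowest in that class, at 303, 357.5, 319.9 and 131 CPM over the classes.

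Monocyte genes lay in both directions. Of 13 measured members, Ly6c2 (42.1 and 18.1 CPM) and Chil3 (36.1 and 17.1 CPM) were higher in positive cells and F10 (21.1 and 46.3 CPM) was lower, with a median log2 ratio of 0.12. The shares over all measured genes were 3.5% higher and 3.27% lower. Ly6c2 was found in 14 and 12 cells, with 16 of the 42 positive UMIs in 1 cell, and against all 815 negative cells the ratios were 1.27 for Ly6c2 and 0.897 for Chil3. S100a6, an abundant monocyte gene, was at 5262 and 6337 CPM (ratio 0.830, 0.800 to 0.862). The Ly6c2 cells had the summed list at 15447 CPM, against 7841 in positive and 9229 CPM in negative macrophages.

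Some cell cycle genes were higher in reporter-positive cells. Cycling cells, with at least 2 UMIs summed over Mki67, Top2a, Ccnb1, Ccnb2, Cdk1, Birc5 and Cenpf, were 20 of 231 matched positive cells (8.66%, interval 5.37 to 13.1%) and 14 of 231 matched negative cells (6.06%, 3.35 to 9.96%), and these intervals overlapped. Over all members they were 23 of 236 positive (9.75%, 6.28 to 14.3%) and 35 of 815 negative cells (4.29%, 3.01 to 5.92%). Mki67, the proliferation antigen, was at 66.2 and 29.2 CPM in 19 and 13 matched cells (ratio 2.27, 1.45 to 3.65), and its ratio with all negative cells was 4.20. Of the 12 cell cycle genes, all measured, Mki67 and Ccnb1 were at least 2-fold higher and none was lower, with a median log2 ratio of 0.56. Over all measured genes the shares were 3.5% higher and 3.27% lower. The DNA synthesis gene Tk1 (63.2 and 29.2 CPM) and the chromosome condensation gene Smc2 (58.2 and 23.1 CPM) were also higher. By TdTomato class the cycling share was 4.29%, 1.92%, 8.55% and 11.9%, with 35, 3, 13 and 10 cells at median depths of 3624, 3977.5, 3360 and 3912.5 UMIs. Sparc-rich macrophages had 1.52%.

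Some of the higher genes changed when cycling cells were left out of both sides. AA467197 was at 103 and 39.2 CPM, in 22 and 23 cells, and without cycling cells its ratio was 0.815 in place of 2.63. Lyz1 had a ratio of 1.92 without them, and Smc2 and Tk1 also fell short of 2-fold. Mki67 had a ratio of 1.33, but it is among the genes that define cycling cells, so this setting cannot test it.

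Chemokine and inflammatory genes were less steady. Ccl4, which attracts monocytes and lymphocytes, was at 134.5 CPM in 39 positive cells and 30.2 CPM in 16 matched negative cells, a ratio of 4.46 (2.98 to 6.86), but with all members the ratio was 1.93. Cells with 1 TdTomato UMI had the highest Ccl4 level of the 4 classes, 198 CPM. Ccl3, its neighbour and close relative, had a ratio of 2.34 (1.77 to 3.13) and 1.95 with all members. Of 13 measured chemokines, Ccl3, Ccl4 and Cxcl10 were higher and none was lower, against 3.5% higher and 3.27% lower of all measured genes. Cxcl10 had 15 of its 19 positive UMIs in 1 cell. Ccl17 was found in 9 positive and 5 negative cells, with 153 of 177 UMIs in 1 positive cell, so its levels of 178 and 62.4 CPM rest on those cells. None of 7 measured proinflammatory genes passed 2-fold. Il1b was at 632 and 619 CPM (ratio 1.02, 0.913 to 1.14) and Tnf at 52.2 and 56.3 CPM (0.926, 0.623 to 1.38). Of 12 immediate early genes, all measured, Fosb was higher (209 and 101 CPM, with a ratio of 1.97 with all members), 10 had ratios above 1 and the median log2 ratio was 0.35.

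Other genes were lower in reporter-positive cells, and for most of them the ratio depended on a few cells or on which cells were compared. Spp1, the secreted matrix protein osteopontin (chromosome 5, 104435118 to 104441050, plus strand), was at 318 CPM in 68 positive cells and 1421 CPM in 72 negative cells, 4.47-fold lower (3.95 to 5.06). One negative cell held 349 of 1413 UMIs, and without the highest cell of each side the levels were 260.4 and 1077 CPM. With all members, which adds the 5 positive and 584 negative cells that the match left out, the Spp1 ratio was 0.426. With sides matched on C1q as well as UMIs it was 0.841. Over the TdTomato classes Spp1 was at 977, 709.6, 204 and 764 CPM. Cells with at least 5 TdTomato UMIs had a ratio of 0.257 to depth-matched negative cells (83 a side), so the distance of this class from the negative cells depended on the match. Slc7a11, a cystine transporter, was at 15.1 and 71.4 CPM in 10 and 23 cells. Timp1, an inhibitor of matrix proteases, was at 28.1 and 81.5 CPM in 15 and 31 cells, and Il1rn, the interleukin-1 receptor antagonist, at 40.1 and 102 CPM in 21 and 34 cells. Mmp14, a membrane protease, was at 33.1 and 77.5 CPM in 23 and 39 cells. With all members the ratios were 0.543 for Timp1 and 0.655 for Il1rn, both under 2-fold. Mmp14, Clec4n and Ddt also fell short of 2-fold with all members. Rnase2a was found in 1 positive and 4 negative cells, with 63 of 86 negative UMIs in 1 cell, and its family of close copies makes its counts uncertain. Gypc, a red cell membrane protein, was at 25.1 and 53.3 CPM in 23 and 39 cells (2.13-fold lower, 1.30 to 3.57). Of 10 measured wound-type genes, Arg1, Spp1 and Slc7a2 were lower and none was higher, with a median log2 ratio of -0.22. Over all measured genes the shares were 3.5% higher and 3.27% lower. Arg1 was found in 5 and 15 cells.

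In the other lists few genes passed 2-fold. None of the 7 measured interferon response genes, 10 glycolysis and hypoxia genes, 5 measured osteoclast lineage genes or 7 measured CSF and TGF-beta pathway genes passed 2-fold. Median log2 ratios were 0.26, -0.21, -0.55 and 0.05. All 10 glycolysis and hypoxia genes and all 5 measured osteoclast lineage genes had ratios under 1, and the ratios of their summed levels were 0.870 (0.831 to 0.910) and 0.690 (0.582 to 0.817). For the osteoclast genes Mmp9 and Acp5 this depended on single cells, with 12 of 14 and 28 of 58 negative UMIs in 1 cell. Without the highest cell of each side the ratio was 2.997 for Mmp9 and 0.919 for Acp5. Ctsk and Atp6v0d2 stayed under 1, at 0.67 and 0.562. Of 10 measured genes for the uptake of dying cells, Axl and Itgb5 were higher and none was lower, while the receptor Mertk had a ratio of 1.32 (0.760 to 2.31). Of 11 complement and Fc receptors, Vsig4 was higher and Fcgr4, at 5.02 and 13.1 CPM, was lower. Of 8 iron and haem genes the iron exporter Slc40a1 was higher, at 12.0 and 3.02 CPM in 11 and 3 cells, and of 6 measured matrix remodelling genes Mmp14 and Timp1 were lower. Of all measured genes, 3.5% were higher and 3.27% lower. The transcription factors Maf and Spi1 had ratios of 1.00 and 0.938, and of 12 factors only Runx3, at 8.03 and 18.1 CPM, passed 2-fold. The receptors Csf1r and Csf2ra had ratios of 1.11 and 1.04. Sex-linked transcripts summed to 95.3 and 103 CPM.

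The same split was made in the libraries of days 1 and 2, which the day 5 rule did not use. At day 1, 479 cells were matched on each side and at day 2, 388. Day 0 was not compared because it had 32 and 27 cells. At day 1, 21 of 2766 genes were higher in reporter-positive cells (0.759%) and 8 lower (0.289%), and at day 2, 27 of 2771 (0.974%) and 7 (0.253%). Of the 23 genes higher at day 5, 9 were also higher at day 1 (39.1% of 23, 42.9% of 21) and 10 at day 2 (43.5% of 23, 37.0% of 27). Apoe, Bcl2a1b, Ccl4, Ctsd, Cx3cr1, Olfml3 and Pmepa1 were among those higher on all 3 days. Of the 11 lower genes, Cd209d was lower on all 3 days and Retnla was lower also at day 2. The differences between days were not tested, since each day has 1 library, and 4 macrophage barcodes were shared by days 1 and 2, 7 by days 1 and 5 and none by days 2 and 5.

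Cx3cr1 had ratios of 4.42 at day 1, 4.96 at day 2 and 4.05 at day 5, with levels in positive cells of 119, 133 and 147 CPM. Apoe had ratios of 2.20, 2.17 and 2.17 and S100b of 5.63, 7.07 and 12.5. Vsig4 was at 557 CPM in positive and 368 CPM in negative cells of day 1 (ratio 1.52, 1.38 to 1.67). On day 2 it had 506 CPM in positive and 317 CPM in negative cells (1.59, 1.43 to 1.78). The ratio of 4.17 at day 5 thus came with a positive level of 659 CPM, near the earlier ones, and a negative level of 158 CPM. Retnla was 1.70-fold lower at day 1, 2.40-fold lower at day 2 and 2.92-fold lower at day 5. Clec10a had ratios of 0.442, 0.338 and 0.527.

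**Figure D4:**
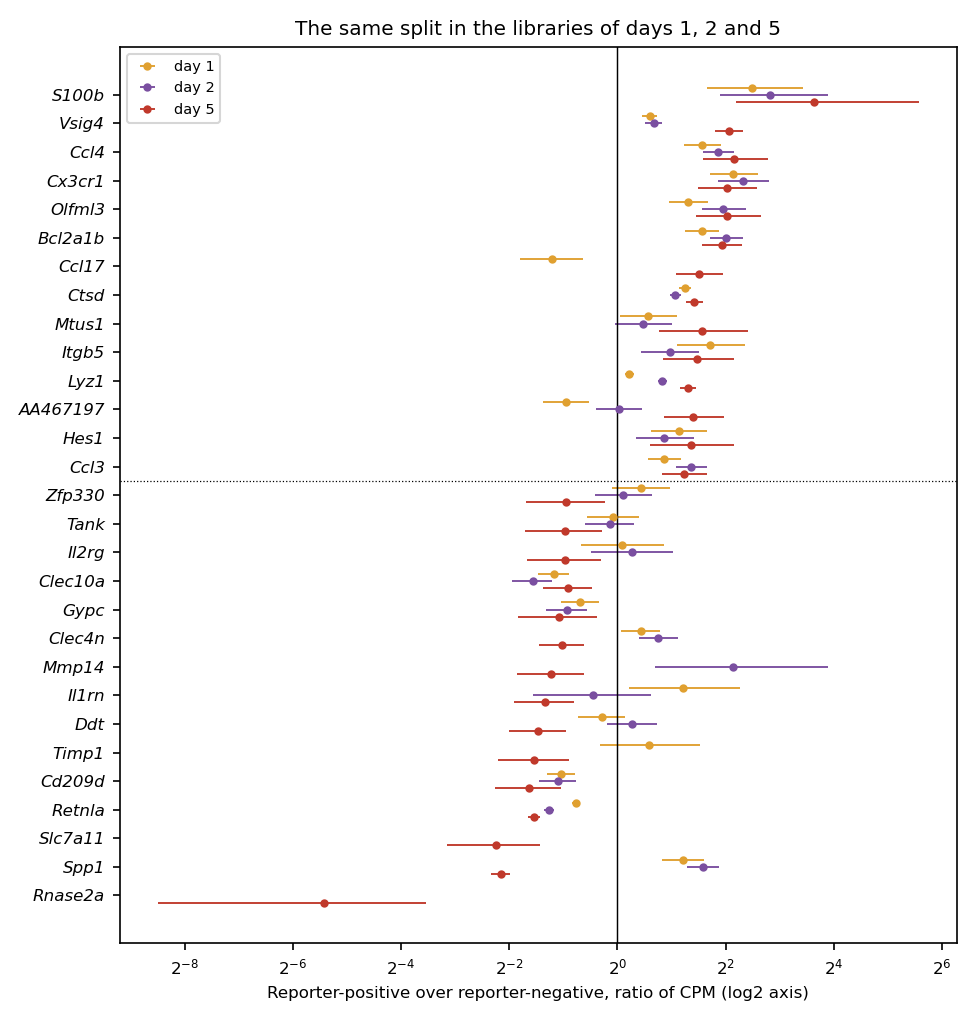
Ratio of reporter-positive to reporter-negative CPM on a log2 axis for 29 named genes in the libraries of days 1 (yellow), 2 (purple) and 5 (red), with exact 95% intervals for counting error; genes under 10 CPM on both sides of a day are not drawn for it. Cx3cr1, Ctsd and Bcl2a1b lie right of 1 on every day, Cd209d and Retnla left of it, and Spp1 lies right of 1 at days 1 and 2 (2.31 and 2.98) and left of it at day 5.

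The summed MHC class II level was lowest in the cells with the most reporter RNA on the earlier days too. Over the classes of 0, 1, 2 to 4, and 5 or more TdTomato UMIs, the summed list measured 12487, 18425, 20821 and 8289 CPM at day 1, and the day 2 values were 12672, 17896, 25100 and 8445 CPM. The class with 2 to 4 UMIs had the highest and the class with 5 or more the lowest level in each of the 3 libraries. The share of cells with at least 20 MHC class II UMIs after thinning did not show the same distance. It was 16.8%, 24.4%, 29.8% and 13.4% (interval 8.997 to 18.8%) over the classes at day 1 and 14.99%, 21.8%, 36.6% and 15.7% (11.1 to 21.4%) at day 2, so on both days the interval of the highest class held the share of the reporter-negative cells. The interstitial list was 21202, 17452, 14706 and 11557 CPM in these classes at day 1. It was 18507, 13662, 11224 and 10308 CPM at day 2 and 13096, 11697, 8863 and 8871 CPM at day 5. It was highest in reporter-negative cells on each day.

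In the lowest and highest reporter class the lining list summed to 1752 and 3096 CPM on day 1, 1883 and 3268 CPM on day 2, and 1331 and 3015 CPM on day 5. Its level in the highest class was thus similar on the 3 days, and its level in reporter-negative cells was lowest at day 5. The summed cell cycle list of the highest class was at 507, 414 and 1594 CPM on days 1, 2 and 5, and that of reporter-negative cells at 365, 312 and 554 CPM. These classes were not matched on depth. In the matched sides the list was lower in positive cells at day 1 (437 and 521 CPM) and day 2 (311 and 348 CPM). At day 5 it was higher in them (1146 and 780 CPM). In matched cells the median log2 ratio of the cell cycle genes was -0.46 at day 1, -0.02 at day 2 and 0.56 at day 5.

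Proinflammatory genes were apart on the earlier days. On day 1, 3 of 5 measured members were at least 2-fold higher in reporter-positive cells, where 1.46% of all measured genes were higher and 1.32% lower. On day 2, 3 of 6 were higher, against 1.51% higher and 1.96% lower of all. Their median log2 ratio was 1.04 on day 1, 1.21 on day 2 and -0.11 on day 5. Il1b had ratios of 2.20 on day 1, 2.87 on day 2 and 1.02 on day 5, and Tnf of 3.76, 1.78 and 0.926. Summed over the list, reporter-negative cells had 95.7, 158 and 857 CPM on the 3 days. The class with 2 to 4 TdTomato UMIs had 231, 342 and 1264 CPM, and the class with 5 or more had 292, 512 and 655 CPM. At day 5 the class with 2 to 4 UMIs was thus above the reporter-negative cells and the class with 5 or more below them. These classes were not matched on depth. The matched sides of day 5 had 981 CPM in positive and 1041 CPM in negative cells. Il1b was at 845 CPM in the class with 2 to 4 UMIs and 475 CPM in reporter-negative cells. After thinning it was in 18.4% and 17.3% of these cells, so it differed in amount and little in the number of cells.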

How the data were processed

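The deposited values are raw UMI counts for each gene in each barcode, which the authors left unnormalized. The submitters' processing notes name R 3.5.2, Seurat 2.3, Cell Ranger 2.1.0 and mm10 (GRCm38), without saying what each was used for. Genes seen in fewer than 5 barcodes of a library are missing from its file and were not taken as 0. The libraries held 2756 to 7542 barcodes and 7115082 to 18426363 UMIs, and day 5 held 14995823. The 4 libraries differ in day, so day and library cannot be told apart. The cells and gene lists were chosen with earlier results of these data known.

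Sides were matched 1 to 1 without replacement on log2 UMI totals within 0.05, from the deepest cell of the smaller side downward. UMIs were summed over a side and given as CPM. Ratios carry exact conditional Poisson 95% intervals, with a count of 0 set to 3. For shares of cells, each cell was thinned to 2000 UMIs (seed 1). Named genes were the 15 highest and 15 lowest by log2 ratio with 5 CPM added, among genes with at least 50 CPM on 1 side, leaving out the rule's own genes and mitochondrial, ribosomal, haemoglobin, sex-linked and predicted genes, with the first 3 members of each list and up to 4 others with the largest ratios. A few genes picked this way are not reported here. Gene positions are from GENCODE M21. Doublets were not called or removed, and an alternative left out cells above the 95th percentile of UMIs. Summed counts of 2610 genes were also simulated for this comparison from a Poisson model, the same model that the intervals assume. There 100% of 200 genes changed 4-fold were recovered, 0.0415% of unchanged genes passed 2-fold and 96.2% of intervals held the true ratio. The simulation had no clustering of UMIs in single cells. It therefore checks the calculation and does not give the error rate of the real counts. Alternatives changed the matching, depth, scaling, level limit and the limits on TdTomato, Sparc, C1q and mitochondrial UMIs, and left out cycling cells. Scripts ran in Python 3.11.15 with pandas 2.3.3, SciPy 1.17.1, matplotlib 3.10.9 and NumPy 2.4.6.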

Additional observations from a re-analysis of the deposited data

Results flagged for a closer look

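Some genes counted as higher or lower at day 5 had ratios on the other side of 1 at an earlier day, with intervals that did not reach 1. These differences between days were not tested, since each day has 1 library. Spp1 was 4.47-fold lower in reporter-positive cells at day 5, and its ratio was 2.31 at day 1 (98.1 and 42.4 CPM) and 2.98 at day 2 (237 and 79.5 CPM). Clec4n was 2.05-fold lower at day 5, with ratios of 1.35 at day 1 and 1.69 at day 2. Il1rn had a ratio of 0.395 at day 5 and 2.3 at day 1, on 30 and 13 UMIs at day 1. Mmp14 had a ratio of 0.428 at day 5 and 4.39 at day 2, on 22 and 5 UMIs at day 2. In the other direction, AA467197 had a ratio of 2.63 at day 5 and 0.517 at day 1, Tk1 of 2.17 and 0.516, and Ccl17 of 2.85 and 0.435. Tk1 had 15 and 29 UMIs at day 1, with an interval of 0.257 to 0.995. At day 5, Ccl17 had 153 of its 177 positive UMIs in 1 cell, and AA467197 had a ratio of 0.815 without cycling cells.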

How the results depend on the processing

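Counts of genes past 2-fold, 23 higher and 11 lower, were 932 and 1161 without a level limit. They were 106 and 90 with at least 5 TdTomato UMIs (83 cells a side), 10 and 3 with at least 1, and 101 and 72 at 1.5-fold. Lower genes numbered 17 with thinned cells, 21 with sides matched on UMIs and C1q, and 19 with Sparc-free cells, against 11. With all members there were 23 higher and 12 lower, and 15 and 6 of the genes named by the main comparison stayed past 2-fold. The reporter-positive share was 17.0% in Sparc-free cells, 13.6% after thinning, 32.5% at 1 UMI and 6.96% at 5. The share without reporter was 70.2% in Sparc-free cells and 75.5% after thinning. Ccl17 reversed to 0.444 at 5 TdTomato UMIs, 0.364 in Sparc-free cells and 0.187 without cycling cells, and AA467197 to 0.815 without cycling cells. The other 21 higher genes and all 11 lower genes kept their direction under each of 13 settings. Removing each side's highest cell, chosen after seeing the data, left 22 of 23 and 9 of 11 past 2-fold (not Ccl17, Clec4n or Rnase2a). The cause of these changes was not tested. No paired analysis was possible because each day has 1 library and its replicate number is only a name.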
